A study of Homo sapiens with 8 samples.

Results

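The human miRNAs hsa-miR-101-3p, hsa-miR-26a-5p, hsa-miR-26b-5p, hsa-miR-138-5p and hsa-miR-214-3p (written below without the species prefix) are reported in the literature to repress the mRNA of EZH2, the methyltransferase that the compound UNC1999 inhibits. These 5 of the 2549 human miRNAs on the array were chosen by name for that reported target, and none of their measured values was used to choose them. Of the 5, 4 were detected on all 8 arrays and were tested, and miR-214-3p was detected on none. INA-6 is an established human multiple myeloma (MM) cell line that is cultured with interleukin-6, and 1 line in 1 culture system limits the groups as a model of the disease. INA-6 cells were treated for 120 hours with DMSO, the solvent (4 arrays), or with 1 μM UNC1999 (4 arrays), with medium and reagents renewed at 72 hours, and the labels give every array as a biological replicate. The treatment protocol in the labels names UNC2400, an inactive relative of UNC1999, for the control cells, whereas the titles of the samples name DMSO. The control arrays were taken as DMSO here. The mRNA of EZH2 was not analysed here. The study reports that UNC1999 lowered both the mRNA and the protein of EZH2 in MM cell lines after the same time. A link between that and these miRNAs was not tested.

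A miRNA is a short RNA that guides Argonaute proteins to matching sites in mRNAs, mostly in their 3′ untranslated regions, where it lowers translation and the stability of the mRNA. Bases 2 to 8 from its 5′ end, called the seed, carry most of the pairing, so miRNAs with the same seed can act on the same sites. EZH2 is the enzyme within the polycomb complex PRC2 and places methyl groups on lysine 27 of histone H3, a mark of silenced genes. miR-101 is the best known repressor of EZH2 mRNA, and its loss in solid tumours is accompanied by high EZH2. miR-26a is a further repressor of EZH2 that is often low in lymphoma, miR-138 is known from neurons and epithelial tumours, and miR-214 is known from muscle and stroma. The comparison asks whether the mature forms of these miRNAs differed between cells with inhibited and uninhibited EZH2.

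The mature sequences are shown with the seed in capitals, because the seed sets which of the 5 could share sites. They were taken from RefSeq and read 5′ to 3′. All 5 were matched by name.
miR-101-3p: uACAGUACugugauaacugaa
miR-26a-5p: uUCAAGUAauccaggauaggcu
miR-26b-5p: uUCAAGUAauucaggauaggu
miR-138-5p: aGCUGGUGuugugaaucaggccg
miR-214-3p: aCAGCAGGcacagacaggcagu
The 5 miRNAs fall into 4 seeds, and only miR-26a-5p and miR-26b-5p have the same one. Over the aligned bases those 2 differ at 2 positions, C11U and C21U, counted from 1 at the 5′ end with the base of miR-26a-5p first, and miR-26b-5p is 21 bases long against 22 for miR-26a-5p. Probes of near-identical miRNAs can bind the RNA of the other, and the part of this in the signals of miR-26a-5p and miR-26b-5p was not tested.

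On the GRCh38.p14 assembly of the RefSeq table, 2 copies encode miR-101-3p. MIR101-1 has it at chr1:65058442-65058462 on the minus strand, within the span of JAK1 on the same strand, and MIR101-2 at chr9:4850345-4850365 on the plus strand, within RCL1. miR-26a-5p lies at chr3:37969413-37969434 (MIR26A1, plus strand, within CTDSPL) and at chr12:57824658-57824679 (MIR26A2, minus strand, within CTDSP2). miR-26b-5p lies at chr2:218402657-218402677 (MIR26B, plus strand, within CTDSP1). All 3 hosts of miR-26 encode small phosphatases that act on RNA polymerase II. miR-138-5p lies at chr3:44114234-44114256 (MIR138-1, plus strand, within LOC124909489) and at chr16:56858527-56858549 (MIR138-2, plus strand, with no gene spanning it in the table). miR-214-3p lies at chr1:172138816-172138837 (MIR214, minus strand), within DNM3 and its antisense transcript DNM3OS. A mature sequence with 2 copies does not show which copy it came from. Whether each lies in an exon or an intron was not analysed here.

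All 8 arrays lay on 1 slide. The scanner software marked 369 to 484 human miRNAs as detected on the DMSO arrays and 474 to 500 on the UNC1999 arrays. To make arrays comparable, signals were expressed relative to the 75th percentile of the 346 human miRNAs that every array detected, and the log2 of the scaled signal is given below. Before scaling that percentile was 474, 349, 296 and 559 on DMSO arrays 1 to 4 and 686, 708, 729 and 534 on UNC1999 arrays 1 to 4. Values are therefore relative to the bulk of detected miRNAs on the same array. A miRNA entered the test if 1 or both groups detected it on all 4 arrays, and 456 did. Of these 322 (70.6%) were called by limma, with an adjusted P-value (Benjamini-Hochberg) up to 0.05 and a change of 1.2-fold or more. Called lower were 158 (34.6%) and called higher 164 (36%), and the groups did not overlap for 298 (65.4%). The arrays of a group were alike in pairs. The median absolute log2 difference between arrays was 0.083 for DMSO 1 and 4, 0.147 for DMSO 2 and 3, 0.108 for UNC1999 1 and 3 and 0.129 for UNC1999 2 and 4, against 0.18 to 0.28 for other pairs within a group. DMSO 2 and 3 were also the 2 arrays with the fewest detected miRNAs. Unless alike arrays were averaged, the tests counted the 4 arrays of a group as separate samples. Whether alike arrays came from separate cultures was not tested. If they did not, the P-values and standard errors given below are too small. The second principal component of the tested miRNAs, with 15.0% of the variance, put DMSO 2, DMSO 3, UNC1999 2 and UNC1999 4 on 1 side and DMSO 1, DMSO 4, UNC1999 1 and UNC1999 3 on the other. Arrays of different treatments on the same side were not always the most alike over all miRNAs (DMSO 2 and 3 were nearer to UNC1999 1 than to UNC1999 2 or 4). The sides are therefore only a way to split the arrays. They were drawn from these same values, the tested members included, and each holds 2 arrays of each treatment. Differences within a side are thus a description and not a separate check.

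As a check of the label, miR-142-3p, miR-142-5p and miR-150-5p, which are typical of blood cells, were detected on all arrays. All 3 were called lower with UNC1999, at log2 fold changes of −0.52, −0.36 and −0.56, and were above 0 and not called without scaling or scaled to the spike-ins. With the percentile taken from every human miRNA they stayed below 0 and none was called. Without a detection filter, or with alike arrays averaged, miR-142-3p and miR-142-5p lost the call and miR-150-5p kept it. The lymphocyte-associated miR-155-5p was detected on none of the DMSO and 2 of the UNC1999 arrays. Of 5 miRNAs typical of liver, muscle, neurons, epithelium and red cells, none was detected on any array. miR-223-3p, typical of myeloid cells, was also detected on every array, at 5.25 ± 0.21 (SD, n = 4) with DMSO and 6.43 ± 0.39 (SD, n = 4) with UNC1999 (adjusted P-value by limma 5.7e-04), and with normexp background correction its log2 fold change was 0.037 and did not pass. The part of other cells in the results was not tested.

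Of the 4 tested miRNAs, 3 passed the test, all of them in the lower direction, against 34.6% of all tested miRNAs called lower and 70.6% called in either direction. miR-138-5p, miR-101-3p and miR-26a-5p were lower with UNC1999 and miR-26b-5p did not pass the test, while without scaling, or scaled to the labelling spike-ins, the mean of all 4 was higher with UNC1999 than with DMSO. Their log2 fold changes had a median of −0.37, against 0.011 for all 456 tested miRNAs. Those 456 include miRNAs that only 1 group detected on all its arrays. In a fit of the 346 detected on all 8 arrays, as these 4 were, the median was −0.14. In that fit 139 were called lower and 109 higher. Between the quartiles of −0.51 and 0.51 of all tested miRNAs lay miR-101-3p, miR-26a-5p and miR-26b-5p. Counted from the most negative fold change, miR-138-5p stood at 88, miR-101-3p at 134, miR-26a-5p at 153 and miR-26b-5p at 183 of 456, and 226 of the 456 were below 0. Over 29 alternative settings, miR-138-5p was called lower in 27, miR-101-3p in 15 and miR-26a-5p in 11. With alike arrays averaged, the adjusted P-value by limma was 0.040 for miR-138-5p, 0.13 for miR-101-3p and 0.23 for miR-26a-5p.

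**Figure D1:**
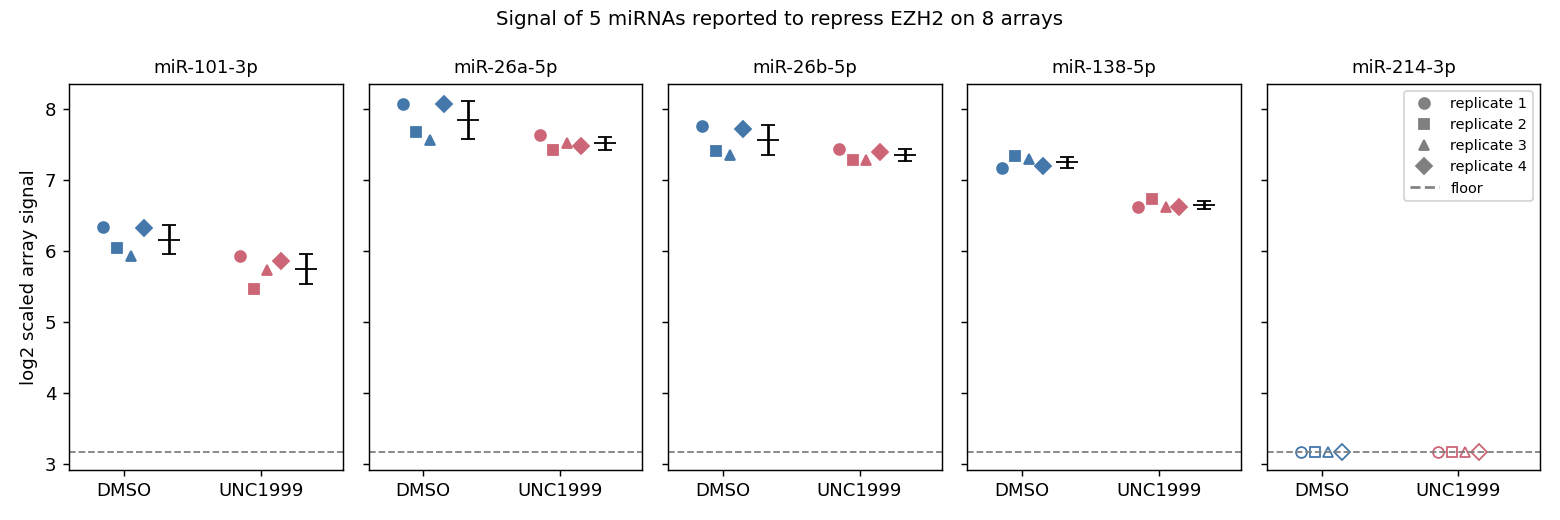
Log2 scaled signal (y axis) of the 5 miRNAs on the 4 DMSO (blue) and 4 UNC1999 (red) arrays, with a symbol for each replicate number. Black bars give the mean ± SD, open symbols are arrays on which the miRNA was not detected, and the dashed line is the floor at 3.17. The groups are apart for miR-138-5p, overlap for miR-101-3p, miR-26a-5p and miR-26b-5p, and lie at the floor for miR-214-3p.

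Of the 4, miR-138-5p had the largest log2 fold change on the scale used here. Its log2 signal was 7.18, 7.34, 7.30 and 7.21 on DMSO arrays 1 to 4 and 6.63, 6.73, 6.63 and 6.62 on UNC1999 arrays 1 to 4. Every UNC1999 array lay below every DMSO array, as for 65.4% of all tested miRNAs in either direction. The means were 7.26 ± 0.08 and 6.65 ± 0.05 (SD, n = 4 each). The log2 fold change was −0.60 (SE 0.09, 95% confidence interval −0.80 to −0.41), or 1.52-fold lower with UNC1999. The adjusted P-value by limma was 4.1e-04, and the exact permutation test gave the smallest two-sided p that 4 against 4 arrays allow, 0.029. Both probes of miR-138-5p separated the groups, with log2 differences of −0.64 and −0.59. Its log2 difference was −0.65 among the arrays on the side of DMSO 2 and 3 and −0.56 among those on the side of DMSO 1 and 4. Within the rows of the slide the log2 difference was −0.62 (row 1, with 3 DMSO arrays and 1 UNC1999 array) and −0.64 (row 2, with 1 DMSO array and 3 UNC1999 arrays). No single array left out ended the call, and the log2 fold change then ran from −0.63 to −0.58.

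miR-101-3p had a log2 signal of 6.34, 6.05, 5.94 and 6.33 on DMSO arrays 1 to 4 and 5.94, 5.46, 5.74 and 5.86 on UNC1999 arrays 1 to 4. DMSO 1 and 4 were high, UNC1999 2 was low, and UNC1999 1 reached the level of DMSO 3, so the groups overlapped. The means were 6.16 ± 0.20 and 5.75 ± 0.21 (SD, n = 4 each). The log2 fold change was −0.41 (SE 0.14, 95% confidence interval −0.72 to −0.11), or 1.33-fold lower. The adjusted P-value by limma was 0.0206, while the exact permutation test of the 8 values gave p = 0.057 (two-sided). Fewer spots of miR-101-3p were clearly measured: 116 of its 160 spots (72.5%) were well above background, against all 160 for miR-26a-5p, miR-26b-5p and miR-138-5p. The spots of a probe had a median coefficient of variation of 17.0% for miR-101-3p and 7.79% for miR-138-5p. Of its 2 probes, the brighter one had 77 of 80 spots well above background and a log2 difference of −0.39 (exact p = 0.057). The other had 39 of 80, from 0 of 10 on DMSO 3 to 10 of 10 on DMSO 4. Its difference of −0.47 separated the groups (exact p = 0.029), unlike that of the brighter probe, but rests on spots near background.

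The difference in miR-101-3p was −0.49 on the principal component side of DMSO 1 and 4 and −0.33 on that of DMSO 2 and 3. It was −0.38 within row 1 and −0.22 within row 2 of the slide. The call was lost when DMSO 1 (−0.35), DMSO 4 (−0.36) or UNC1999 2 (−0.32) was left out, and also with row as a block (−0.30).

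miR-26a-5p and miR-26b-5p share their seed, and their values ran in parallel across the arrays. miR-26a-5p had a log2 signal of 8.08, 7.69, 7.56 and 8.07 on DMSO arrays 1 to 4 and 7.63, 7.43, 7.53 and 7.49 on UNC1999 arrays 1 to 4. DMSO 1 and 4 stood above the other 6 arrays, and DMSO 3 lay below UNC1999 1. The means were 7.85 ± 0.27 and 7.52 ± 0.09 (SD, n = 4 each). The log2 fold change was −0.33 (SE 0.13, 95% confidence interval −0.63 to −0.03), or 1.26-fold lower. The adjusted P-value by limma was 0.0465 and the exact permutation p 0.057 (two-sided). Its 2 probes gave −0.30 (exact p = 0.086) and −0.34 (exact p = 0.057). The call held in 2 of the 8 fits that left out 1 array, those without DMSO 2 or without DMSO 3. The call was also lost with slide row as a block (−0.25, adjusted P-value 0.187) and with the replicate number as a block (−0.33, adjusted P-value 0.0524). It was lost without DMSO 1, DMSO 4 or any of the 4 UNC1999 arrays, with log2 fold changes between −0.43 and −0.25 over the 8 fits.

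miR-26b-5p did not pass the test. Its log2 signal was 7.76, 7.41, 7.36 and 7.73 on DMSO arrays 1 to 4 and 7.45, 7.29, 7.29 and 7.40 on UNC1999 arrays 1 to 4. DMSO 1 and 4 were again the highest, and DMSO 2 and 3 lay below UNC1999 1. The means were 7.57 ± 0.21 and 7.36 ± 0.08 (SD, n = 4 each). The log2 fold change of −0.21 had a 95% confidence interval of −0.47 to 0.05 (SE 0.12, adjusted P-value by limma 0.135, exact permutation p = 0.14). That interval includes the fold change of miR-26a-5p, but it takes no account of both being measured on the same arrays. Their ratio within an array, given below, compares the 2 directly and did not pass after adjustment.

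On the principal component side of DMSO 1 and 4 the difference was −0.49 for miR-26a-5p and −0.38 for miR-26b-5p, and on that of DMSO 2 and 3 it was −0.17 and −0.04. Within slide row 1 it was −0.46 and −0.23, and within row 2 it was −0.03 and −0.02. With DMSO 2 and 3 left out, all 4 tested miRNAs were called lower, at −0.58 for miR-101-3p, −0.56 for miR-26a-5p, −0.39 for miR-26b-5p and −0.54 for miR-138-5p. With DMSO 1 and 4 left out instead, 1 of the 4 was called, miR-138-5p at −0.67, while miR-101-3p was at −0.24, miR-26a-5p at −0.11 and miR-26b-5p at −0.03. These 2 choices of arrays were made after the data were seen.

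miR-214-3p was not detected on any array. Its summed signal was below 0 after background subtraction on all 8 arrays, from −9.38 to −4.86, where the lowest detected miRNA of an array had 7.72 to 13.2, and 3 of its 160 spots (1.88%) were well above background. No fold is given for it. The miRNAs of the same primary transcript, miR-199a-3p and miR-199a-5p, were detected on no array either.

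**Figure D2:**
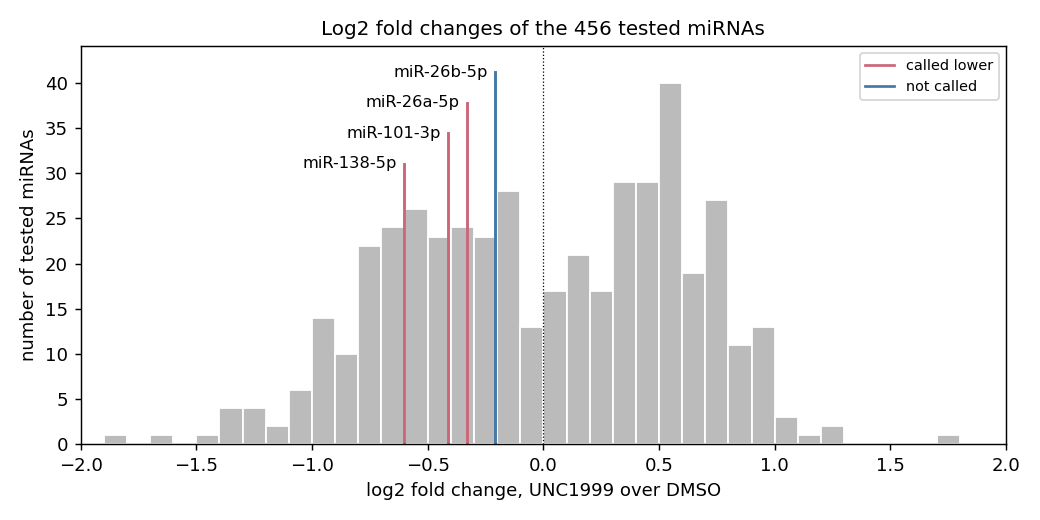
Number of the 456 tested miRNAs (y axis) by log2 fold change, UNC1999 over DMSO (x axis, bins of 0.1). Lines mark the 3 miRNAs called lower (red) and miR-26b-5p, which was not called (blue). The lines lie between −0.60 and −0.21, within the left part of the distribution.

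Ratios between miRNAs of the same array do not depend on the scaling between arrays, and they show unequal change only. The log2 ratio of miR-101-3p to miR-26b-5p was −1.40 ± 0.03 with DMSO and −1.61 ± 0.15 with UNC1999 (SD, n = 4 each), and the groups did not overlap. The difference of −0.20 had an exact permutation p of 0.029 (two-sided), which was 0.11 after Benjamini-Hochberg adjustment over 6 ratios. Without UNC1999 2 the difference was −0.13. The ratio of miR-26a-5p to miR-26b-5p differed by −0.12 (exact p = 0.057, adjusted 0.11) and that of miR-101-3p to miR-26a-5p by −0.08 (exact p = 0.46). The ratio of miR-138-5p to the others was added after their values were seen. It differed by −0.19 for miR-101-3p (exact p = 0.26), −0.27 for miR-26a-5p (exact p = 0.29) and −0.39 for miR-26b-5p (exact p = 0.057, adjusted 0.11). None of the 6 passed after adjustment. With 4 against 4 arrays, at least 4 of the 6 would have to reach the smallest exact p to do so, and these tests therefore do not show whether the miRNAs differed in response.

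**Figure D3:**
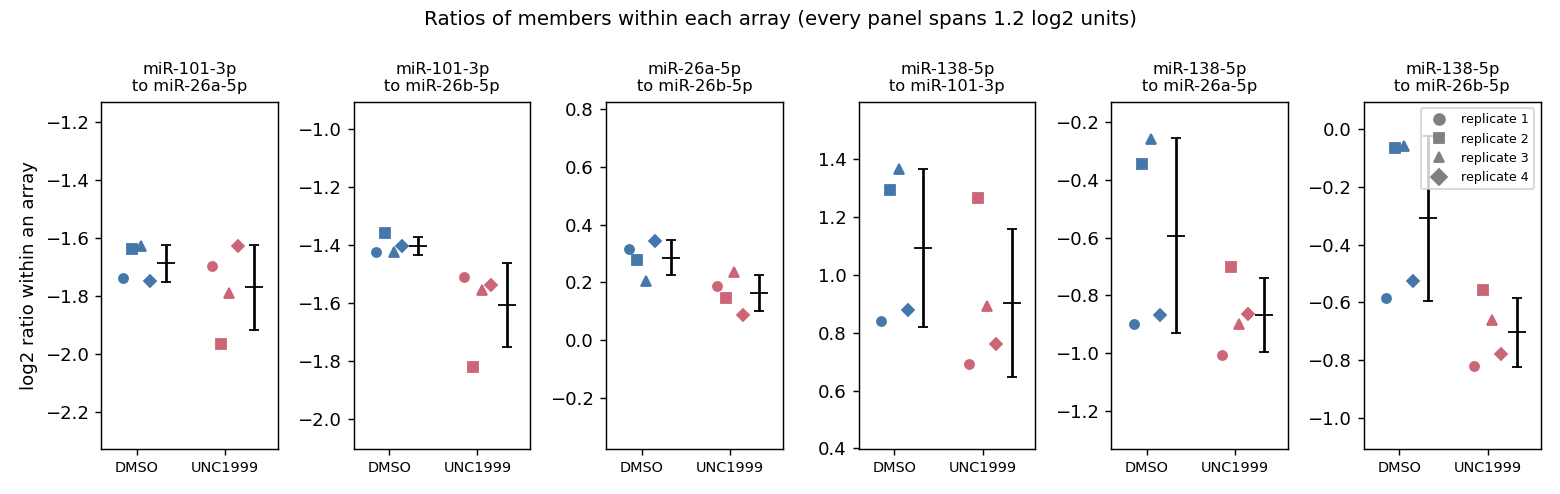
Log2 ratio of 2 miRNAs within an array (y axis, each panel spanning 1.2 units) for the 4 DMSO (blue) and 4 UNC1999 (red) arrays, with a symbol for each replicate number and black bars for the mean ± SD. The ratio of miR-101-3p to miR-26b-5p is lower on every UNC1999 array, and the ratios with miR-138-5p have a wide spread between DMSO 1 and 4 and DMSO 2 and 3.

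The likeness of patterns over the arrays was measured with Pearson's r. This r, a description over 8 arrays that share their scaling and their groups, was 0.92 between miR-101-3p and miR-26a-5p, 0.91 between miR-101-3p and miR-26b-5p and 0.97 between miR-26a-5p and miR-26b-5p. miR-138-5p had an r of 0.64 to miR-101-3p, 0.57 to miR-26a-5p and 0.47 to miR-26b-5p. Among 345 other miRNAs detected on all arrays, the pattern most like that of miR-101-3p was that of miR-142-3p (0.98), followed by miR-96-5p (0.97) and miR-424-5p (0.97). miR-301b-3p was nearest to both miR-26a-5p (0.98) and miR-26b-5p (0.97). For miR-138-5p the nearest were miR-324-3p (0.99), miR-378a-3p (0.98) and miR-4428 (0.98).

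Other miRNAs with the seed of the members were next considered, as they could pair with the same sites. miR-4465 has the seed of miR-26 in an otherwise different sequence.
miR-4465: cUCAAGUAgucugaccagggga
It was detected on all arrays, with a log2 signal of 7.61, 7.64, 7.72 and 7.61 on DMSO arrays 1 to 4 and 7.26, 7.71, 7.27 and 7.60 on UNC1999 arrays 1 to 4. UNC1999 1 and 3 were low and the groups overlapped. The log2 fold change of −0.19 (SE 0.12) did not pass the test (adjusted P-value by limma 0.186). Its sign also depended on the scaling. miR-4465 was at 0.51 without scaling and at 0.035 with the percentile taken from every human miRNA, and neither was called. Scaled to the labelling spike-ins it was called higher, at 0.63 (adjusted P-value by limma 0.010). miR-1297 with the seed of miR-26, and miR-761 and miR-3619-5p with that of miR-214-3p, were detected on no array. No other human miRNA on the array had the seed of miR-101-3p or miR-138-5p. miR-144-3p, which is also reported to repress EZH2, shares 6 of the 7 seed bases of miR-101-3p and is shown for that reason.
miR-144-3p: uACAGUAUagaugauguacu
miR-144-3p was detected on no array. Of the 8 other arms of the hairpins of the 5 miRNAs, 7 were on the array, and none of these was detected on any array.

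A list of 17 further miRNAs reported to repress EZH2 gave the surroundings of the 5, beside the 34.6% of all tested miRNAs called lower. Of the 346 miRNAs detected on all 8 arrays, 139 were called lower when fitted alone. The list was drawn from general knowledge with earlier results of these data known. Most of its tested miRNAs are let-7 miRNAs of similar sequence, so its count called lower is no independent test. Of the 17, 8 were detected on no array and 9 were tested, of which 7 were called lower, none higher, and 2 did not pass. Their log2 fold changes had a median of −0.64, which became 0.059 without scaling and 0.18 scaled to the labelling spike-ins. On those 2 scales 0 of the 9 were called lower, and 1 and 2 of them were called higher. With the percentile taken from every human miRNA, or without a detection filter, the count called lower was 3. Among the let-7 miRNAs, which restrain growth in many tissues and differ by few bases, let-7d-5p was at −1.01, let-7c-5p at −0.83, let-7g-5p at −0.80, let-7i-5p at −0.67, let-7f-5p at −0.64 and let-7a-5p at −0.48. All 6 were called lower, and let-7b-5p at −0.13 did not pass (adjusted P-value by limma 0.273). Arrays can split signal unevenly among let-7 members, so single values are uncertain. miR-25-3p was called lower (−0.48), and miR-30d-5p, at 0.08, did not pass (adjusted P-value 0.578). The study names let-7 miRNAs and miR-25-3p among its results on these samples, so their direction is not independent evidence.

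The choice of scaling bore on the sign of the 4 tested members. The median log2 fold change of the tested miRNAs was 0.67 without scaling and 0.78 with the labelling spike-ins as the reference, against 0.011 here. On those 2 scales miR-138-5p was at 0.093 and 0.21, miR-101-3p at 0.28 and 0.40, miR-26a-5p at 0.37 and 0.48, and miR-26b-5p at 0.49 and 0.61. Relative to the median tested miRNA of the same setting, miR-138-5p, miR-101-3p and miR-26a-5p lay lower in all 30 settings, and miR-26b-5p in 29, the exception being normexp background correction. For miR-26a-5p the smallest distance to that median, also with normexp, was −0.00065 on the log2 scale. Many of the 30 settings could hardly change this distance. A scale factor per array shifts a miRNA and the median nearly alike, and a change of variance model or test leaves the fold changes as they were. The count of settings is therefore not a count of independent checks. A lower position among the detected miRNAs and a lower amount per cell cannot be told apart on these arrays.

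**Figure D4:**
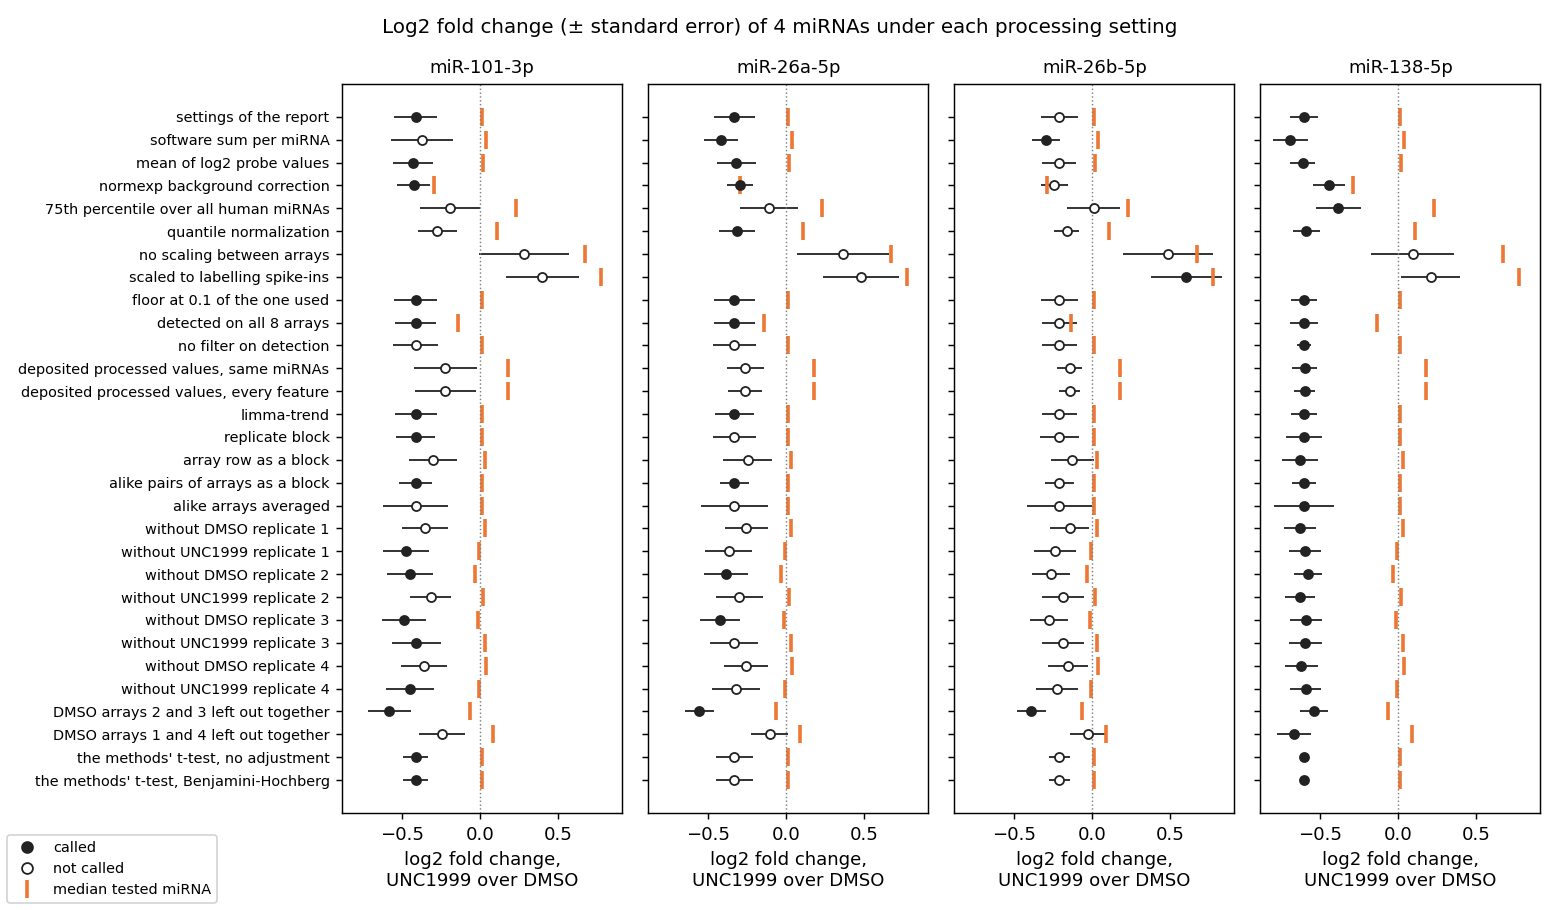
Log2 fold change, UNC1999 over DMSO (x axis), with its standard error, of the 4 tested miRNAs under each processing setting (y axis). Filled circles passed the test, open circles did not, and the orange mark is the median tested miRNA of that setting. miR-138-5p is called lower in every setting but those without scaling or scaled to spike-ins, and all 4 miRNAs are above 0 in those 2 settings, with the circle left of the median mark.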

How the data were processed

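Single-colour Agilent miRNA arrays of INA-6 cells were read with Agilent Feature Extraction 10.7.3.1, per the labels. The authors deposited spot intensity with the background subtracted and not normalized between arrays, and also a quantile-normalized log2 table, used as an alternative. Outlier spots (1392 to 2292 of 53144 on an array) were left out, the spots of a probe averaged and the probes of a miRNA summed. Arrays were scaled as given in the report and multiplied by the geometric mean of the percentiles. The floor was 8.98, the median of the 8 arrays' lowest scaled signals of a detected miRNA, and log2 was taken after it was applied.

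limma 3.58.1 in R 4.3.3 (lmFit, eBayes, no block) was fitted to all 456 miRNAs, after a test on simulated data. The simulated arrays had independent noise, without the alike pairs of the real arrays, so that test does not cover such pairs. Single values and ratios were compared with exact permutation tests, two-sided, over the 8 arrays. The number of arrays limits the precision. For the miRNA arrays the methods of the study name a fold change of 1.2 and a moderated t-test. Their general section on statistics names a paired t-test, which is not the test named for the arrays. It was run here as an alternative and is called the methods' t-test. The named miRNAs were the 5 members, the other arms, miRNAs of the same transcript or seed, a list of reported EZH2 repressors, and the 3 most alike patterns by Pearson's r. These members and lists were chosen by name with earlier results of these data known. For the 5 members none of their measured values was used in the choice. miR-142-3p and others were used as markers.

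Alternatives covered signal summary, background (normexp, offset 50), scaling, a floor at 0.1 of the one used, detection filter, the deposited log2 values, variance model, blocks, left-out arrays and the methods' t-test. Coordinates are those of GRCh38.p14, while the array design file names another build and was used for no coordinate.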

Additional observations from a re-analysis of the deposited data

Results flagged for a closer look

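In 20 groups of 4 values, 2 had an array that stood out by Dixon's test, where chance gives about 1. miR-138-5p on UNC1999 array 2 was at a log2 signal of 6.73, above the other 3 UNC1999 arrays and still below every DMSO array. The log2 ratio of miR-101-3p to miR-26b-5p on UNC1999 array 2 was −1.82, below the other 3 UNC1999 arrays.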

How the results depend on the processing

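Of 29 alternatives, miR-101-3p was called lower in 15 and miR-26a-5p in 11. miR-138-5p was called lower in 27 of 29 alternatives, from −0.69 to −0.38, and was not called without scaling (0.093) or scaled to the labelling spike-ins (0.21). On these 2 scales miR-101-3p turned to 0.28 and 0.40, miR-26a-5p to 0.37 and 0.48, and miR-26b-5p to 0.49 and 0.61, the last called higher (adjusted P-value by limma 0.0287), and 0 and 1 of the 4 were called. Taking that percentile from every human miRNA instead, miR-101-3p was at −0.19, miR-26a-5p at −0.11 and miR-26b-5p at 0.012, and 1 was called. The calls of miR-101-3p and miR-26a-5p were lost, leaving 1 called, with no filter on detection (−0.41 and −0.33), with the deposited log2 values over the same miRNAs or every feature (−0.22 and −0.26 in both), with array row as a block (−0.30 and −0.25), with alike arrays averaged (−0.41 and −0.33), where 4 samples remain, and with DMSO 1 and 4 left out (−0.24 and −0.11). miR-101-3p alone lost its call with quantile normalization (−0.27) and with the software's own sum (−0.37), where miR-26b-5p was called (−0.30). miR-26b-5p was also called with DMSO 2 and 3 left out (−0.39). For the other losses the cause was not tested. Leaving out 1 array gave −0.49 to −0.32 for miR-101-3p, −0.43 to −0.25 for miR-26a-5p, −0.28 to −0.14 for miR-26b-5p and −0.63 to −0.58 for miR-138-5p, with 1 to 3 called, 1 without DMSO 1, DMSO 4 or UNC1999 2. The replicate numbers did not pair the samples (correlations of deviations 0.18, 0.27, −0.42 and −0.39), and with the replicate block miR-26a-5p kept −0.33 with an adjusted P-value of 0.0524, while no other member changed its call. By the methods' t-test, paired, miR-26a-5p (−0.33) was not called either before or after adjustment.

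The ratio of miR-101-3p to miR-26a-5p turned to 0.045 with the software's sum, and that of miR-101-3p to miR-26b-5p gave −0.077 with that sum and −0.18 with normexp (exact permutation p = 0.54 and 0.057). Leaving out 1 array gave −0.13 to −0.02, −0.24 to −0.13 and −0.15 to −0.10 for the ratios of miR-101-3p to miR-26a-5p, miR-101-3p to miR-26b-5p and miR-26a-5p to miR-26b-5p, and −0.31 to −0.10, −0.38 to −0.16 and −0.49 to −0.31 for miR-138-5p to miR-101-3p, miR-26a-5p and miR-26b-5p.

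Of all miRNAs tested, 322 were called, and 195 with no filter, 156 with alike arrays averaged, 206 over every feature of the deposited values and 152 by the methods' t-test after adjustment. The calls were 164 higher of 322 here, 192 of 280 with the percentile of every human miRNA, 54 of 284 with normexp, 234 of 238 without scaling and 295 of 302 with spike-ins. The dim signal of miR-101-3p, and miR-214-3p below background, limit what can be read of them.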
